A study of Mus musculus with 16 samples.

Results

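Interferon-stimulated genes were followed across 6 Notch1 genotypes in endothelial cells of mouse embryos at embryonic day 9.5. The 9 genes were Ifit1, Ifit3, Isg15, Irf7, Irf9, Stat2, Bst2, Ifitm2 and Ifitm3. They were picked by gene symbol from the 22096 symbols of the deposited expression tables, and all 9 were found. The choice was made with the expression differences between the genotypes in view, so the values given for them, counts of calls included, are a description and not independent evidence.

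Endothelial cells were sorted from whole embryos with an antibody to CD31, and RNA was sequenced in 16 libraries. Each genotype is a pair of Notch1 alleles. The 12/- embryos (3 libraries) carried the 12 allele, in which the intracellular domain of Notch1 is exchanged for that of Notch2, beside a deleted allele, and the labels describe endothelial dysfunction in them. The 12/vg embryos (1 library) carried the 12 allele beside the vg allele, a V1744G substitution that moves the cleavage site and yields a less stable intracellular fragment, and were described as partly affected. The +/12, +/- and +/vg embryos (3 libraries each) carried 1 of these alleles, 12, deleted or vg, beside a wild-type allele. The +/+ embryos (3 libraries) carried wild-type alleles only. Endothelial development was labelled normal in the +/12, +/-, +/vg and +/+ groups, called the 4 normal genotypes below. The labels do not say how many embryos a library holds, and the p-values below cover only the variation from library to library, part of which may be technical. No group received interferon or an infection, as far as the labels say.

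Interferons are secreted proteins that cells make when sensors detect viral nucleic acid. Type I interferons bind the Ifnar1 and Ifnar2 receptor chains, whose kinases Jak1 and Tyk2 activate transcription factors, Stat2 among them. Stat2 and Irf9 are subunits of a complex called ISGF3, which binds a promoter sequence called the interferon-stimulated response element (ISRE) and switches on a large set of antiviral genes. Type II interferon acts through another promoter sequence, the gamma-activated site (GAS). Some of these genes, the Ifitm family and Bst2 among them, are also known to be expressed without interferon in particular cells, and Ifitm3 is known as an early marker of mouse primordial germ cells.

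All values are deposited FPKM (fragments per kilobase of transcript, corrected for library size), summed over the transcripts of a gene and divided by a median-ratio factor per library, and are called scaled FPKM. Per library, between 9975 and 10538 genes reached an FPKM of at least 1. Aligned sequence was 0.189 gigabases in +/- replicate 2 and 0.262 in the 12/vg library, and between 1.11 and 1.80 in the other 14. All 10 endothelial markers were present. Pecam1, which encodes CD31, was at 72.7 to 89.2 scaled FPKM in 12/- libraries and 46.1 to 71.8 in those of the 4 normal genotypes, without overlap, and 1 of the 10 markers, Flt1, was called higher in 12/- by limma. Notch1 was 16.2 ± 1.66 scaled FPKM in the 7 libraries with a 12 allele and 20.6 ± 2.47 in the 9 without (SD), and Notch2 was 4.10 ± 0.357 with and 2.68 ± 0.482 without a 12 allele. Library numbers in the file names ran from 203 to 248 for 9 libraries and from 371 to 380 for 7. All libraries with a 12 allele were in the low range and all +/+ libraries in the high range, so those genotypes and the number range cannot be told apart.

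The promoters were searched first, since the ISRE is what the name of these genes refers to. The core searched was GAAANNGAAA, or TTTCNNTTTC on the other strand, in RefSeq windows (build GRCm38.p6) from 250 bases before to 50 bases after a gene start. The core occurred in 7 of the 9 genes, and in 1131 of all 32851 windows, 3.44%. Irf7 and Irf9 had no match in these windows. The GAS letters TTCNNNGAA, which read the same on both strands, occurred in the windows of Bst2 and Ifitm3, and in 8.3% of all windows. A match describes the letters only. The stretches holding the ISRE core are shown because they are what these 7 promoters share, with the matching letters in capitals, each 5′ to 3′ along the gene:
Isg15, chr4:156200855-156200916, minus strand: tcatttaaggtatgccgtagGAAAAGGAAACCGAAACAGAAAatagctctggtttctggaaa
Bst2, chr8:71537567-71537622, minus strand: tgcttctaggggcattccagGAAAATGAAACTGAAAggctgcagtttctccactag
Ifitm2, chr7:140955978-140956027, minus strand: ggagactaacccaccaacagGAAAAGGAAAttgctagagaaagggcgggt
Ifitm3, chr7:141010716-141010742, minus strand: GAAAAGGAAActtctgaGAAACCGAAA
Stat2, chr10:128270256-128270305, plus strand: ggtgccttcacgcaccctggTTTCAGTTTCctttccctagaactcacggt
Ifit3, chr19:34583353-34583436, plus strand: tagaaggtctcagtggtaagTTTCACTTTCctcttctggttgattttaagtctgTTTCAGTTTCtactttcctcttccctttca
Ifit1, chr19:34640765-34640833, plus strand: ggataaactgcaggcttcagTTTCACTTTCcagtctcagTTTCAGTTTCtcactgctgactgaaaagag

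Isg15 held 3 overlapping matches in 1 run, Bst2 2 overlapping ones, and Ifit1, Ifit3 and Ifitm3 2 separate ones each. Ifitm2 and Stat2 held 1 each. The Ifitm3 stretch began at base 3, counting the annotated start as base 1, while the stretches of the other 6 genes lay before theirs.

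The 9 genes spanned a wide range of levels. Ifitm2 and Ifitm3 were among the highly expressed genes of these cells, Bst2 was intermediate, and the ISGF3 subunits Stat2 and Irf9, together with Isg15, were low. Ifit1, Ifit3 and Irf7 stayed under 1 scaled FPKM in all 16 libraries, while Isg15 ran from 0.815 to 4.19. Ifitm2 was above Ifitm3, Ifitm3 above Bst2 and Bst2 above Stat2 in 16 of 16 libraries. Below that the order was not fixed: Stat2 was above Isg15 in 9 of 16 libraries and Isg15 above Irf9 in 11. Irf9 was above Irf7 in 16 of 16, Irf7 above Ifit3 in 13 and Ifit3 above Ifit1 in 12. FPKM is a value per length, so these comparisons between genes are of levels per kilobase.

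**Figure D1:**
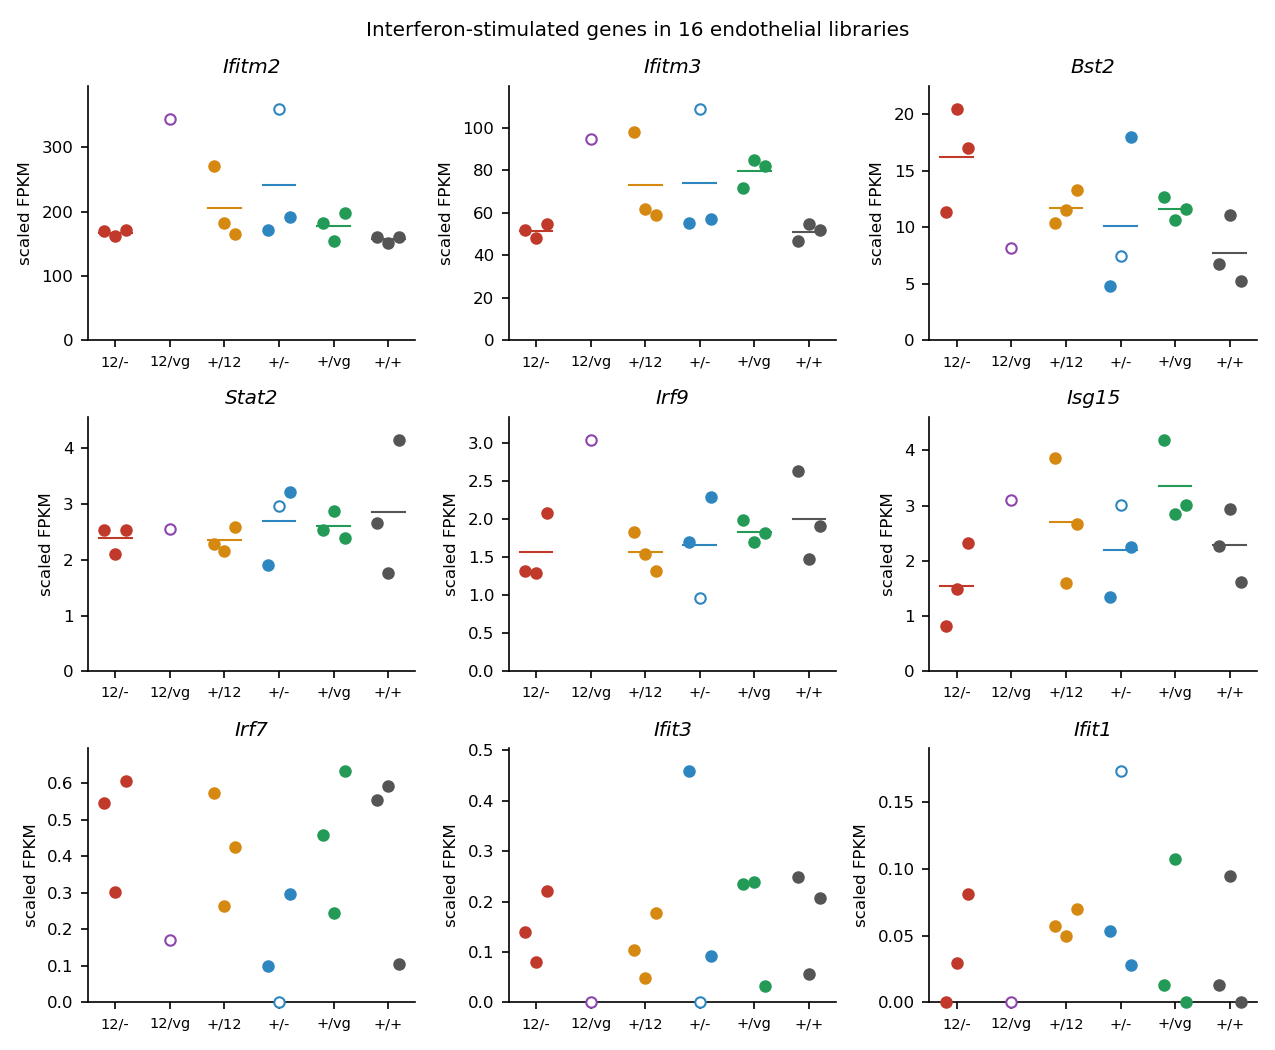
Scaled FPKM (y axis, linear, from 0) of each gene in every library, by Notch1 genotype (x axis). Points are libraries, short bars are group means (drawn for the 6 genes with a mean of at least 1), and open points are the 2 libraries with 0.189 and 0.262 gigabases of aligned sequence. Ifitm2 sat at 161 to 171 in 12/- libraries and 152 to 359 in the libraries of the 4 normal genotypes, and Ifit1, Ifit3 and Irf7 stayed under 1 throughout.

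Ifit1 (chromosome 19, 34715379 to 34724499, mm9) encodes a protein that binds viral RNA lacking the cap modification of host mRNA. It was listed at 0, 0.0293 and 0.0808 scaled FPKM in 12/- libraries, at 0 in 12/vg, at 0.0574, 0.0496 and 0.0703 in +/12, at 0.0535, 0.173 and 0.0284 in +/-, at 0.0131, 0.108 and 0 in +/vg and at 0.0127, 0.0949 and 0 in +/+. It was thus listed at 0 in 4 libraries, spread over 4 genotypes, and the highest value came from a shallow library.

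Ifit3 (chromosome 19, 34658019 to 34663472), an adaptor that binds Ifit1 family proteins in human cells, was at 0.140, 0.0809 and 0.221 scaled FPKM in 12/- libraries, 0 in 12/vg, 0.104, 0.0483 and 0.178 in +/12, 0.459, 0 and 0.0928 in +/-, 0.235, 0.240 and 0.0323 in +/vg, and 0.248, 0.0555 and 0.207 in +/+. The only values of 0 were those of the 2 shallow libraries. Ifit1 and Ifit3 lie in a cluster of related genes, and the sources used here do not say how reads common to such copies were divided, so their low values are uncertain in addition.

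Irf7 (chromosome 7, 148449088 to 148452300), the transcription factor that amplifies type I interferon production, was at 0.546, 0.304 and 0.606 scaled FPKM in 12/- libraries, 0.170 in 12/vg, 0.575, 0.265 and 0.426 in +/12, 0.0986, 0 and 0.296 in +/-, 0.460, 0.244 and 0.634 in +/vg, and 0.556, 0.594 and 0.105 in +/+. The 12/- values were all above those of +/- and lay within the range of +/vg. They also lay above the lowest and, with 1 exception, below the highest of +/+. No fold change is given for Ifit1, Ifit3 and Irf7.

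The ISGF3 subunits were low and close to each other. Stat2 (chromosome 10, 127707632 to 127729905) was at 2.53, 2.10 and 2.53 scaled FPKM in 12/- libraries, 2.56 in 12/vg, 2.29, 2.16 and 2.60 in +/12, 1.91, 2.97 and 3.21 in +/-, 2.53, 2.88 and 2.40 in +/vg, and 2.67, 1.77 and 4.15 in +/+. The mean was 2.39 ± 0.247 in 12/- and 2.63 ± 0.638 over the 12 libraries of the 4 normal genotypes (SD). Both the lowest and the highest library of all 16 were +/+, so the spread within wild type covered every other genotype.

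Irf9 (chromosome 14, 56222822 to 56228867, 3 transcripts summed), which brings the DNA-binding domain to ISGF3, was at 1.32, 1.30 and 2.07 scaled FPKM in 12/- libraries, 3.04 in 12/vg, 1.83, 1.54 and 1.32 in +/12, 1.71, 0.968 and 2.30 in +/-, 1.99, 1.70 and 1.81 in +/vg, and 2.63, 1.48 and 1.91 in +/+. Its highest and lowest values were those of the 2 shallow libraries, 12/vg and +/- replicate 2. Among the other 14 it ran from 1.30 to 2.63, with the groups overlapping.

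Isg15 (chromosome 4, 155573533 to 155574927) encodes a ubiquitin-like protein that is attached to other proteins after interferon. It was at 0.815, 1.48 and 2.32 scaled FPKM in 12/- libraries, 3.10 in 12/vg, 3.86, 1.60 and 2.67 in +/12, 1.34, 3.02 and 2.26 in +/-, 4.19, 2.85 and 3.01 in +/vg, and 2.27, 2.95 and 1.62 in +/+. The lowest library was 12/- and the highest +/vg, and these genotypes did not overlap, whereas 12/- overlapped with each of +/12, +/- and +/+. The mean was 1.54 ± 0.755 in 12/- and 2.63 ± 0.872 in the 4 normal genotypes (SD, n = 3 and n = 12).

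Bst2 (chromosome 8, 74058161 to 74061336), also called tetherin, holds budding virus particles at the cell surface. It was at 11.3, 20.4 and 17.0 scaled FPKM in 12/- libraries, 8.20 in 12/vg, 10.4, 11.5 and 13.3 in +/12, 4.83, 7.45 and 17.9 in +/-, 12.7, 10.6 and 11.6 in +/vg, and 6.75, 11.1 and 5.25 in +/+. All 12/- values were above all +/+ values, by a narrow gap (11.3 against 11.1), and they overlapped with +/12, +/- and +/vg. The mean was 16.2 ± 4.59 in 12/- and 10.3 ± 3.73 in the 4 normal genotypes (SD).

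Bst2 also followed the library numbers. It averaged 13.5 ± 4.03 scaled FPKM in the 9 libraries of the low range and 8.38 ± 3.07 in the 7 of the high range (SD). Within +/-, the low-range library had 17.9 and the others 4.83 and 7.45, while within +/vg the low-range library, at 11.6, lay between the others. The part of the number range in the genotype differences of Bst2 was not tested beyond the covariate given below. That covariate is estimated only within +/- and +/vg, the genotypes with libraries in both ranges, each with a single low-range library.

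Ifitm2 (chromosome 7, 148140738 to 148141860) and Ifitm3 (chromosome 7, 148195489 to 148196643) encode membrane proteins that hinder the fusion of virus with the cell. Ifitm2 was at 169, 161 and 171 scaled FPKM in 12/- libraries, 344 in 12/vg, 271, 182 and 164.5 in +/12, 172, 359 and 191 in +/-, 182, 155 and 199 in +/vg, and 160, 152 and 161 in +/+. Of the tested genes, 97.5% had a lower mean. The 2 shallow libraries had the 2 highest values, and without them the range was 152 to 271.

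Ifitm3 was at 51.9, 47.9 and 54.8 scaled FPKM in 12/- libraries, 94.8 in 12/vg, 97.7, 61.9 and 59.0 in +/12, 55.3, 109 and 57.2 in +/-, 71.6, 84.7 and 82.2 in +/vg, and 46.8, 54.9 and 51.7 in +/+. The 12/- values lay below all of +/12, +/- and +/vg and among those of +/+. As the 12/- and +/+ means were 51.6 ± 3.49 and 51.1 ± 4.03 (SD, n = 3 each), the difference of 12/- from the 4 normal genotypes came from the other 3 of them.

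Ifitm2 and Ifitm3 were high together in 12/vg, +/- replicate 2 and +/12 replicate 1. They parted in +/vg replicate 2, where Ifitm3 was at 84.7 scaled FPKM and Ifitm2 at 155. The ratio of Ifitm2 to Ifitm3 had a median of 3.11 and ran from 1.83 to 3.63. Pearson's r of their log2 values was 0.81 over 16 libraries and 0.67 over the 14 deeper ones. How far the latter rests on +/12 replicate 1 was not tested. Both transcripts are short, 627 and 648 nt, as are those of Bst2 and Isg15 (766 and 756 nt). Genes with a longest transcript of 500 to 800 nt numbered 393. Their median log2 shift was 0.10 in +/- replicate 2 and 0.05 in 12/vg. Ifitm2 was at 359 and 344 in these libraries, against a median of 170.4 scaled FPKM in the other 14. The part of transcript length in these Ifitm2 values was not tested. Ifitm1, a neighbour of the same family, was also highest in +/- replicate 2, at 27.4 scaled FPKM, and was 9.70 in 12/vg.

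**Figure D2:**
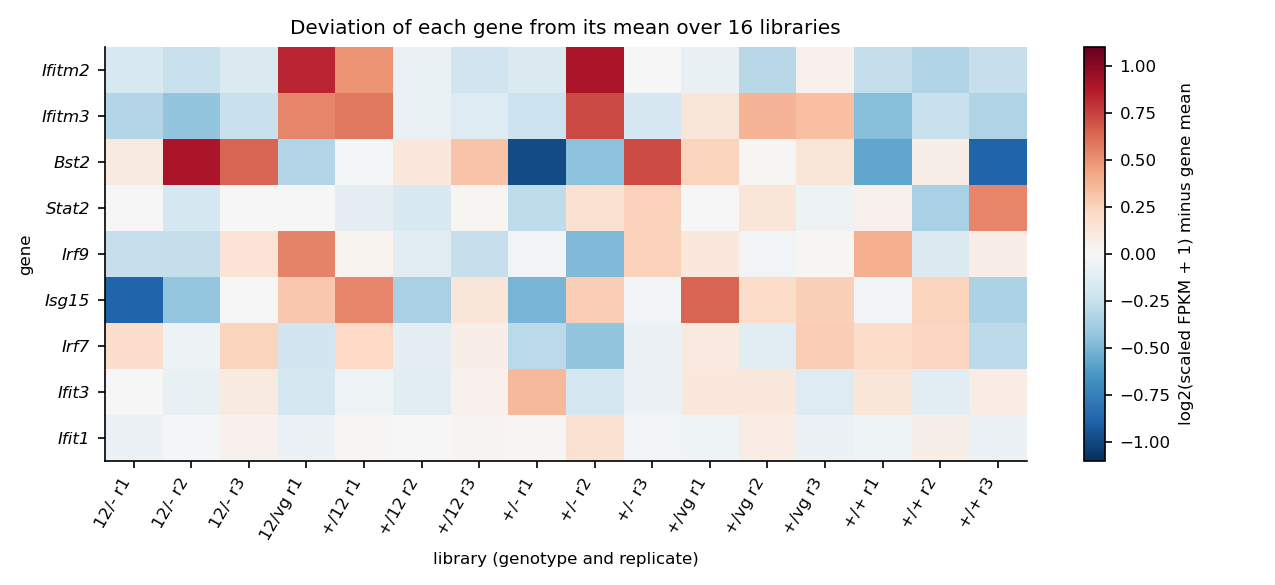
Deviation of log2(scaled FPKM + 1) from the mean of each gene over 16 libraries (colour, red above and blue below the mean), for the 9 genes (rows) in every library (columns, by genotype). No library was above its mean for all 9 genes or below it for all 9, and Ifitm2 and Ifitm3 were both high in 12/vg, +/12 r1 and +/- r2.

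The 9 genes did not move as 1 block. Over their 36 pairs the median Pearson's r across the 16 libraries was 0.0051, 17 pairs had a negative r, and only Ifitm2 with Ifitm3 (0.81) and Isg15 with Ifitm3 (0.66) were above 0.5. The same pairs were the only ones above 0.5 over the 14 deeper libraries. These values are descriptions over libraries that share genotype, depth and number range. Of the other tested genes, those whose pattern was most like the mean of the 9 were Gse1 (r = 0.87), Ptpn11 (0.86), Zbtb45 (0.83), Irf1 (0.81), Chmp1b (0.81), Car2 (0.80), Sla (0.80), Tmbim4 (0.80), Rbp2 (0.80) and Pnkd (0.79), each over 16 libraries. Of these 10 genes, Ptpn11 and Irf1 were in the interferon lists.

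The comparison of 12/- with the 4 normal genotypes sets embryos with endothelial dysfunction against those without. On the log2(scaled FPKM + 1) scale, which understates changes of low genes, Bst2 differed by 0.65 ± 0.28 (SE), Isg15 by -0.52 ± 0.22, Ifitm3 by -0.37 ± 0.19, Ifitm2 by -0.18 ± 0.19, Irf9 by -0.10 ± 0.16 and Stat2 by -0.08 ± 0.16. Isg15 differed by -0.30 without 12/- replicate 1, and Ifitm2 by -0.09 without the shallow +/- replicate 2. Over all 9 genes 2 differences were positive and 7 negative, with a median of -0.08, beside a median of -0.0048 over all 10550 genes tested. The 9 include Ifit1, Ifit3 and Irf7, which were too low to be among those tested. Over the 6 that were tested the median was -0.14. The share of negative differences over all genes was not computed. Across the 10550 genes tested limma called 83, 0.787% of them, at an adjusted p under 0.05 with 76 higher (0.72%) and 7 lower (0.0664%). Of the 6 interferon-stimulated genes with a mean of at least 1, 0 were called. Since this comparison was known when the genes were chosen, nothing is read from that count. At an unadjusted p under 0.05 were 11.5% of all genes. None of the 9 separated the 3 libraries of 12/- from the 12 of the normal genotypes, as 2.84% of all genes did.

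Against +/12 alone, which shares the 12 allele and the low range of library numbers, Isg15 differed by -0.54 ± 0.28, Ifitm3 by -0.46 ± 0.24, Bst2 by 0.41 ± 0.36, Ifitm2 by -0.26 ± 0.24, Stat2 by 0.02 ± 0.20 and Irf9 by -0.01 ± 0.21 (log2, SE). Much of this came from +/12 replicate 1, without which Isg15 differed by -0.33, Ifitm3 by -0.23 and Ifitm2 by -0.05. Isg15 differed by -0.32 without 12/- replicate 1, and Bst2 by 0.23 without 12/- replicate 2 and 0.63 without 12/- replicate 1. Ifitm2 differed by -0.41 without +/12 replicate 3. The median over the 9 was -0.01. In limma 22 genes were called, 0.209% of those tested, all higher in 12/-, and 0 of the 6, with 5.3% of all genes at an unadjusted p under 0.05. Only Ifitm3 had no overlap between the libraries of 12/- and +/12, where 14.8% of all genes had none. Both comparisons use the 12/- libraries and the +/12 libraries, so their values are not independent of each other.

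**Figure D3:**
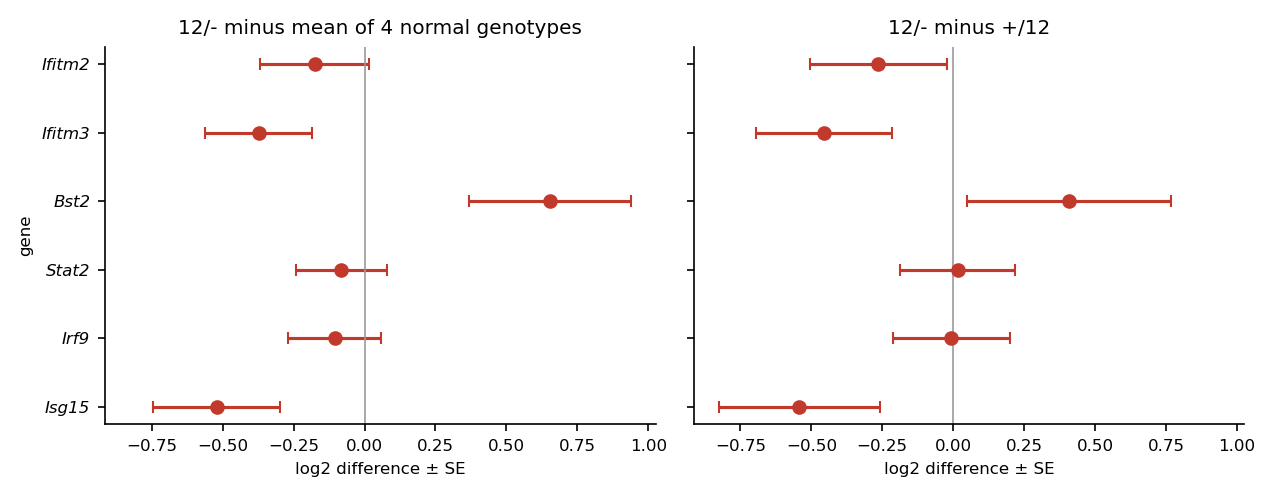
Log2 difference of scaled FPKM + 1 (x axis, points with standard errors from limma) for the 6 genes with a mean of at least 1 (y axis), in 12/- minus the mean of the 4 normal genotypes (left) and 12/- minus +/12 (right). Bst2 lay above 0, and Isg15, Ifitm3 and Ifitm2 below 0, in both.

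Set against each normal genotype by itself, the 12/- libraries did not overlap with those of +/- for Irf7 (higher), Ifitm2 and Ifitm3 (lower), where 14.2% of all genes did not. Against +/vg this held for Isg15 and Ifitm3 (both lower), with 20.7% of all genes, and against +/+ for Bst2 and Ifitm2 (both higher), with 19.8%. Ifitm2 was thus below all +/- values and above all +/+ values, but by narrow gaps. These were 171.4 against 171.8 scaled FPKM in +/-, and 161.4 against 160.6 in +/+. The gaps to +/- were also narrow for Ifitm3 (54.8 against 55.3) and Irf7 (0.304 against 0.296).

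The 3 heterozygous genotypes were each set against wild type, which asks whether 1 altered Notch1 allele beside a normal one shifts these genes. Their p-values carry the same limit, since the genes were chosen with results of all genotypes known. No interferon-stimulated gene passed the test in any of them, and neither did any other gene (0% of 10550 called in each). In +/12 against +/+, Bst2 differed by 0.60 ± 0.36, Ifitm3 by 0.47 ± 0.24, Ifitm2 by 0.35 ± 0.24, Irf9 by -0.22 ± 0.21, Stat2 by -0.16 ± 0.20 and Isg15 by 0.15 ± 0.28 (log2, SE). The limma adjusted p of these 6 ran between 0.898 and 0.978. At an unadjusted p under 0.05 were 5.37% of all genes. Bst2 changed sign, to -0.12, when the library number range was fitted as a covariate, and differed by 0.39 without +/+ replicate 3. The covariate is estimated only within +/- and +/vg. There the low-range +/- replicate 3, at 17.9 scaled FPKM, stood apart from the other +/- libraries, at 4.83 and 7.45. Without +/12 replicate 1, Ifitm3 differed by 0.24, Ifitm2 by 0.14 and Isg15 by -0.07.

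In +/- against +/+, Ifitm2 differed by 0.53 ± 0.24, Ifitm3 by 0.45 ± 0.24, Bst2 by 0.23 ± 0.36, Irf9 by -0.19 ± 0.21, Isg15 by -0.05 ± 0.28 and Stat2 by -0.04 ± 0.20. The limma adjusted p ran between 0.658 and 0.981. At an unadjusted p under 0.05 were 7.51% of all genes. Bst2 changed sign, to -0.25, without +/- replicate 3, and Isg15 changed sign, to 0.16, without +/- replicate 1. Without the shallow +/- replicate 2 the differences of Ifitm2 and Ifitm3 were 0.20 and 0.14.

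In +/vg against +/+, Ifitm3 differed by 0.63 ± 0.24, Bst2 by 0.59 ± 0.36, Isg15 by 0.41 ± 0.28, Ifitm2 by 0.17 ± 0.24, Irf9 by -0.07 ± 0.21 and Stat2 by -0.06 ± 0.20. The limma adjusted p ran between 0.592 and 0.984. Ifitm3, at 79.5 ± 6.97 scaled FPKM in +/vg and 51.1 ± 4.03 in +/+ (SD, n = 3 each), had a limma adjusted p of 0.592 and was higher in 3 of 3 libraries than in all +/+ libraries. Without +/+ replicate 3, Bst2 differed by 0.38 and Isg15 by 0.26, and without +/vg replicate 3, Ifitm2 differed by 0.09. At an unadjusted p under 0.05 were 7.52% of all genes. Libraries did not overlap with +/+ for Ifitm2 and Ifitm3 in +/12 and in +/-, both higher (12.6% and 7.79% of all genes), and for Ifitm3 in +/vg (13.6%). These 3 comparisons share the +/+ libraries, where Ifitm2 and Ifitm3 were low and close together, so the shared sign is no independent result.

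Markers of other cells in the CD31 gate were set beside these values. Among the deeper libraries, Ifitm3 was highest where the sum of 7 primordial germ cell markers (Dppa3, Dnd1, Nanos3, Pou5f1, Prdm1, Prdm14 and Tcfap2c) was highest. This sum in scaled FPKM was 15.9, 23.0 and 29.7 in the +/vg libraries and 28.7 in +/12 replicate 1, where Ifitm3 was 71.6, 84.7, 82.2 and 97.7. In the 10 other libraries above 1 gigabase the sum was 6.22 to 10.5 and Ifitm3 46.8 to 61.9, so the libraries fell into separate clusters without overlap. This split was set on the values themselves, and the share of all genes without overlap across it was not computed. Ifitm2 overlapped across the same split, at 155 to 271 scaled FPKM against 152 to 191. No correlation across these clusters is therefore given. Within the 10, Pearson's r was 0.37 (permutation p = 0.296) and Spearman's rho 0.32 (permutation p = 0.368), and r was 0.05 without the 2 libraries farthest from the median.

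The sum was 6.22 to 8.95 in 12/- libraries and 8.28 to 29.7 in those of the normal genotypes. It was carried mostly by Dppa3, a germ cell gene that protects DNA methylation in the early embryo, and Prdm1, a transcriptional repressor. In the +/vg libraries and +/12 replicate 1, Dppa3 was 3.64 to 20.1 and Prdm1 4.66 to 10.2, and in the 10 others 0.295 to 4.61 and 3.10 to 7.06. Each of the 7 markers overlapped between these libraries when taken singly. Nanos3 and Tcfap2c went against the sum. Their medians were 0.241 and 0.338 in 12/- libraries and 0.0765 and 0.174 in the normal genotypes. Nanos3, Prdm14 and Tcfap2c were listed at 0 in 5, 3 and 2 libraries. The shallow libraries went another way, with Ifitm3 at 109 and 94.8 and sums of 10.7 and 7.20. In a sorted bulk sample, fewer cells of a type and less RNA per cell cannot be told apart, and the part of germ cells in the level of Ifitm3 was not tested.

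**Figure D4:**
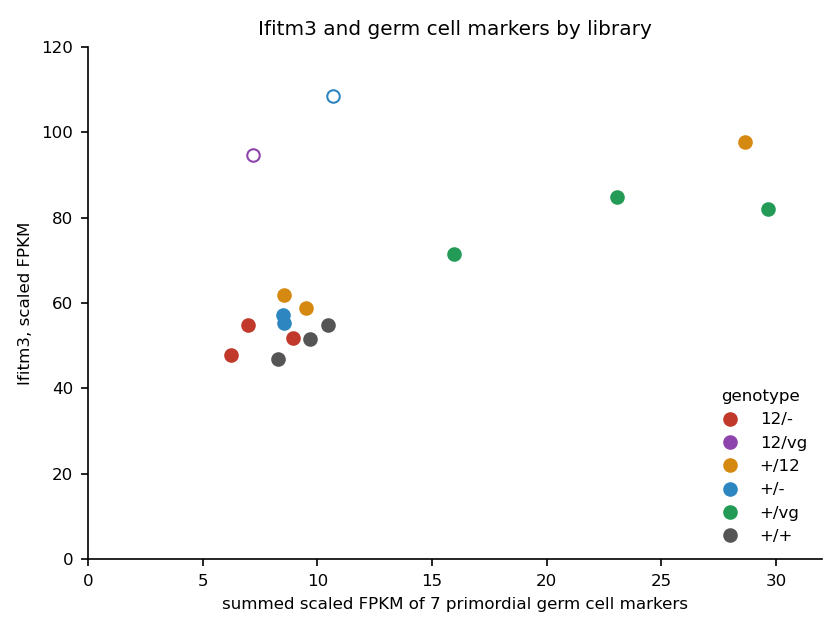
Scaled FPKM of Ifitm3 (y axis) against the summed scaled FPKM of 7 primordial germ cell markers (x axis), 1 point per library, coloured by genotype, with open points for the 2 shallow libraries. The +/vg libraries and +/12 replicate 1 lie apart on the right, at sums of 15.9 to 29.7, and the 12/- libraries on the left, at 6.22 to 8.95.

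Macrophages respond strongly to interferon. The summed scaled FPKM of 14 macrophage markers was 9.29 to 18.6 in 12/- libraries and 7.52 to 16.7 in the normal genotypes. Ptprc, the pan-leukocyte gene CD45, reached at most 0.0522 scaled FPKM in any library, Csf1r 0.311, Cx3cr1 0.196 and C1qa 0.141, while Cd68 reached 6.63, Mrc1 5.96, Lyz2 4.02, Sfpi1 3.69 and Fcgr3 2.67. The part of macrophages in these genes was not tested. Megakaryocyte markers, whose cells carry CD31, had a sum of 361 to 1519 in 12/- libraries and 250 to 1993 in the normal genotypes. It was carried mostly by Pf4, whose mean over the 16 libraries was 778 scaled FPKM. The means of the other markers in that list ran from 6.26 (Gp1bb) to 36.8 (Ppbp). Over 36 relations of Isg15, Bst2, Ifitm2 and Ifitm3 with 9 marker lists, 0 passed Benjamini-Hochberg adjustment over the 16 libraries, where 4 had an unadjusted permutation p under 0.05 and the lowest adjusted p was 0.374. Over the 14 deeper libraries 8 of the 36 had an unadjusted permutation p under 0.05 by Pearson's r. After adjustment only Pearson's r of Ifitm3 with the germ cell sum passed, and by Spearman's rho 0 relations passed. That r is not given because of the separate clusters described above. The permutations treated the libraries as interchangeable, although all +/vg libraries lay in the higher cluster. Nothing is therefore read from that pass.

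The rest of the pathway was examined with 6 gene lists, of which 112 genes were in the files and 50 had a mean of at least 1. Cells at this stage carried transcripts of the receptors and kinases for type I and type II interferon but hardly any interferon transcript. Il28ra, a further receptor chain in these lists, reached at most 0.428 scaled FPKM. All 13 interferon ligands stayed under 1 scaled FPKM in every library. Of these, 8 were listed at 0 in all 16 libraries, among them Ifnb1 and Ifng, and the highest single value was 0.796, for Ifnz. At the receptor, Ifnar1 was 9.20 ± 0.560 in 12/- and 10.1 ± 0.603 in the normal genotypes, and Ifnar2 30.4 ± 2.54 in 12/- and 26.4 ± 14.8 in the normal genotypes (SD, n = 3 and n = 12), or 22.3 ± 4.84 in the normal genotypes without the shallow +/- replicate 2. Jak1 was 18.2 ± 0.900 in 12/- and 15.6 ± 1.26 in the normal genotypes.

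The classical antiviral effectors were mostly low. Of 46 other interferon-stimulated effectors in the files, 23 stayed under 1 scaled FPKM in every library, and 13 were tested. The oligoadenylate synthetases Oas1a, Oas2 and Oas3 reached at most 0.452, 0.0143 and 0.262, the dynamin-like GTPase Mx1 0.239, and Usp18, an inhibitor that interferon induces, 0.594. The effectors that were expressed included Samhd1, a nucleotide hydrolase (7.84 to 14.1), the ubiquitin ligase Trim25 (5.98 to 12.3) and the RNA-activated kinase Eif2ak2 (3.20 to 5.87). Antigen presentation was uneven: B2m, the light chain of class I molecules, ran from 59.7 to 112, while the transporter Tap1 and the immunoproteasome subunit Psmb9 reached at most 0.462 and 0.154.

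**Figure D5:**
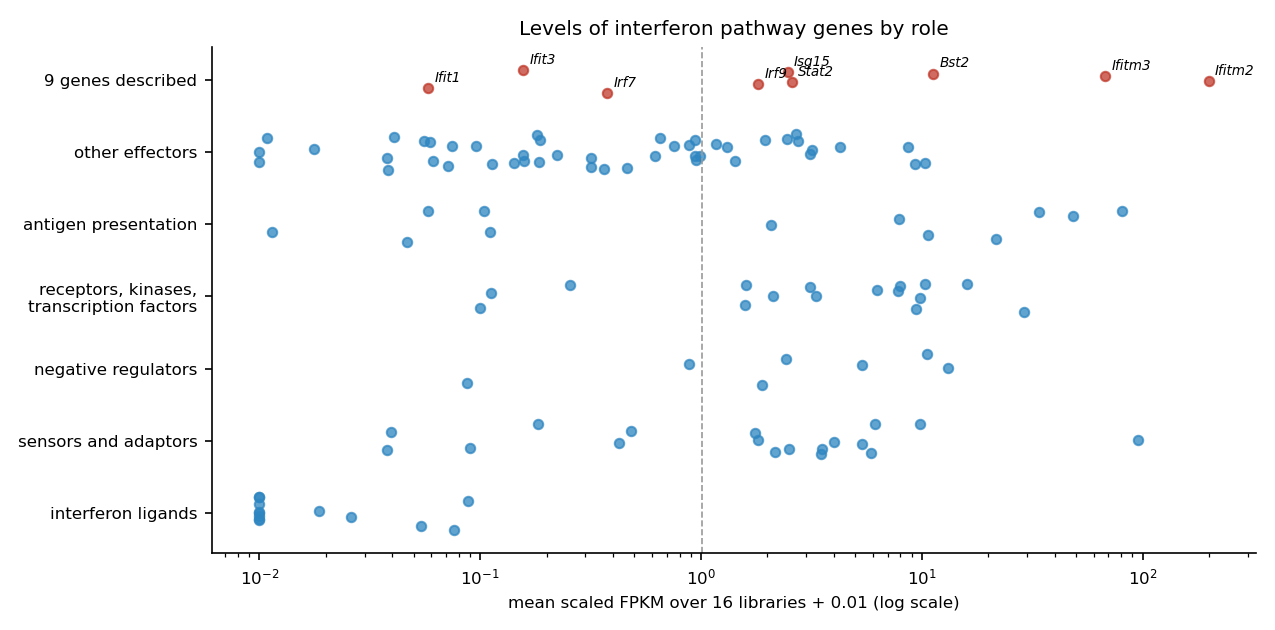
Mean scaled FPKM over 16 libraries plus 0.01 (x axis, log scale) of the 9 genes described (red, named) and of 112 other interferon pathway genes by role (blue), 1 point per gene, with a dashed line at 1. All interferon ligands lie left of the line, and 13 of the 16 receptors, kinases and transcription factors right of it.

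None of the 50 other pathway genes tested was called in any of the 5 comparisons by limma, with 7, 1, 0, 4 and 4 of them at an unadjusted p under 0.05 in 12/- against the normal genotypes, 12/- against +/12, +/12, +/- and +/vg against +/+. Of all genes tested, 11.5%, 5.3%, 5.37%, 7.51% and 7.52% were. The median log2 difference of the 50 was 0.0057, -0.03, 0.12, 0.06 and 0.07 in that order. In 12/- against the normal genotypes the largest positive differences were those of Uba7, the enzyme that activates Isg15 (0.58 ± 0.18), Ifi35 (0.38 ± 0.30) and Ifnar2 (0.32 ± 0.23), with limma adjusted p-values of 0.220, 0.676 and 0.654. The largest negative ones were those of Ifitm1 (-0.57 ± 0.55), the antiviral enzyme Rsad2 (-0.47 ± 0.18) and the cytidine deaminase Apobec3 (-0.46 ± 0.15), with limma adjusted p-values of 0.739, 0.323 and 0.250.

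Uba7 and Isg15, which act in the same conjugation pathway, thus had differences of opposite sign in 12/-. Uba7 was at 2.05, 1.42 and 2.74 scaled FPKM in 12/- libraries, and 1.86 in 12/vg. In the normal genotypes it ran from 0.471 to 1.54, so that 12/- replicate 2 overlapped with them. Within +/-, the low-range library had 1.54 and the others 0.471 and 1.07. Within +/vg the low-range library, at 0.953, lay between the others. Against +/12, which shares the low range, Uba7 differed by 0.36 ± 0.23 (log2, SE). The part of the number range in the Uba7 difference was not tested further. Apobec3 was at 2.10, 1.71 and 1.84 in 12/- and 1.31 in 12/vg, against 1.90 to 4.24 in the normal genotypes. The lowest of these was the shallow +/- replicate 2, and without it the range began at 2.21, above all 12/- values. That library was set aside with the values in view, and the share of all genes without overlap in that setting was not computed.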

How the data were processed

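The authors deposited 1 table per library with FPKM and coverage for 28107 RefSeq transcripts, in the cufflinks layout per the file headers. The submitters' processing notes name TopHat2 2.0.9 and the mm9 build. Strandedness, and the handling of reads that related genes share, are not stated there. The deposited coverage signal divided by FPKM is constant within a library and gives its aligned gigabases. Read counts were not derived from these values, and intervals for counting error are therefore left out.

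FPKM was summed per symbol in pandas 2.3.3 (Python 3.11.15). The fit left out 211 symbols with a transcript status other than OK. Library scaling used median ratios of the 8610 genes that had 1 FPKM or more in all libraries (0.851 to 1.13). The 10550 genes whose mean reached 1 FPKM were fitted as log2(scaled FPKM + 1) with limma 3.58.1 in R 4.3.3 (trend=TRUE, two-sided), all 16 libraries in 6 groups, 10 residual degrees of freedom, and Benjamini-Hochberg adjustment over all of them, called under 0.05. The fit was tested on simulated data. Marker relations used 100000 permutations, two-sided.

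The genes described and the lists were chosen with earlier results of these data known. Of 187 list entries, 185 were found. Beside the 9 genes, those named are up to 4 called genes per list, the 3 pathway genes with the largest and the 3 with the smallest difference in 12/- against the normal genotypes, and the 10 genes most like the mean of the 9; other names illustrate levels or a list. The pathway lists hold 1 gene that is counted with them but not reported here by name. The only called gene of any list was the endothelial marker Flt1, 0.74 ± 0.12 (log2, SE) in 12/- against the normal genotypes (limma adjusted p = 0.00706). Replicates were numbered by accession order.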

Additional observations from a re-analysis of the deposited data

How the results depend on the processing

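None of the 6 interferon-stimulated genes with a test was called in any of the 5 comparisons under any alternative run (other scalings, pseudocounts, filters, weights, moderation, transcript choice, a number range covariate, and leaving out the shallow or any single library). In 12/- against the normal genotypes, 83 genes of all tested became 249 with array weights, 47 with the number range covariate and 137 without the 2 shallow libraries, and 28 to 140 when single libraries were left out (28 without 12/- replicate 1, 140 without +/- replicate 2). With array weights 1 other pathway gene was called. In 12/- against +/12, 22 became 37 with a pseudocount of 5, 3 with these groups fitted alone, 92 with array weights, 35 with the covariate, 40 without the shallow libraries and 3 within the low number range, an alternative chosen after seeing the data, and 11 to 30 with single libraries left out. Against +/+, 0 became 1 for +/12 with the covariate, 1 for +/- with a filter of 0.1, with no filter, with the groups alone and with the highest transcript, and for +/vg 1 with no filter or the groups alone and 3 with array weights. Leaving out single libraries gave 0 to 2, 0 to 4 and 0 to 3 in these comparisons. The causes were not tested. With a pseudocount of 0.1 the median of the 9 became 0.19 in +/12 (0.033 otherwise) and 0.17 in +/vg (0.038 otherwise). With single libraries left out, that median ran from -0.14 to -0.020 in 12/- against the normal genotypes, -0.062 to 0.066 against +/12, -0.060 to 0.11 in +/12, -0.077 to 0.13 in +/- and 0.027 to 0.17 in +/vg. Isg15, Stat2, Bst2, Ifitm2 and Ifitm3 kept their sign in 28 of 28 alternatives of 12/- against the normal genotypes. Irf9 kept its sign in 27 of 28 and ran from -0.25 to 0.18. The alternatives re-use the same libraries and are not independent of each other. Bst2 lay between 0.23, with the number range covariate estimated as described above, and 0.88. No paired analysis was possible because the labels give no replicate numbers.

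Depth limits the low genes most: in the shallow libraries, values under 1 scaled FPKM rest on few bases of aligned sequence.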

Other observations

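The class I genes H2-K1 and H2-D1, which interferon can induce, varied widely between libraries of 1 genotype. H2-K1 was at 2.84, 10.5 and 11.5 scaled FPKM in 12/- libraries, 8.94 in 12/vg, 8.67, 18.0 and 1.21 in +/12, 10.7, 6.85 and 5.87 in +/-, 14.1, 19.0 and 26.3 in +/vg, and 3.32, 14.1 and 7.85 in +/+. H2-D1 ran from 9.19 to 21.9 in 12/- libraries and from 5.71 to 51.3 in the normal genotypes. Both genes belong to a family of near-identical copies that differ between strains, so the split of reads among them is uncertain. B2m, which pairs with both proteins, ran from 75.3 to 86.9 in 12/- libraries and from 59.7 to 112 in the normal genotypes.

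Ifnar2, which encodes a receptor chain for type I interferon, shared with Ifitm2 its high values in the 2 shallow libraries. It was at 59.2 scaled FPKM in 12/vg and 71.2 in +/- replicate 2. In the other 14 libraries it was 27.8 to 32.8 in 12/- and 15.2 to 28.9 in the normal genotypes, with all +/+ libraries at 15.2 to 17.2. In +/- against +/+ it differed by 1.15 ± 0.29 (limma adjusted p = 0.485), and by 0.68 without +/- replicate 2.

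Ifitm1 was at 4.18, 5.46 and 4.68 scaled FPKM in 12/- libraries. In the normal genotypes it was 19.8 in +/12 replicate 1, 27.4 in +/- replicate 2, 9.75 and 18.1 in +/vg replicates 2 and 3, and 3.21 to 6.85 in the rest.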
